A study of Mus musculus with 3 samples.

Results

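Cytosolic ribosomal protein genes were examined as a source of the small RNAs that accompany Tdrd1 and Mili in mouse testis. The genes were the protein-coding genes of the GENCODE vM21 annotation whose symbol begins with Rpl or Rps and a digit, with Rpsa, Rplp0, Rplp1 and Rplp2, and without the S6 kinases and symbols in -ps. This gave 86 of 21951 protein-coding genes. They matched 3854 sense sequences, 0.174% of the 2219118 in the deposited list. The rule reads gene symbols and no measured value. The members comprised 46 genes of the large subunit, 31 of the small subunit, 8 paralogs with a subunit's name and a suffix, and Rps19bp1, which encodes a partner of a ribosomal protein and not a subunit. A further 6 protein-coding symbols ending in -ps and a number were left out as named pseudogenes.

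The list pools 3 libraries from testes of the C57BL/6 strain, 1 per group. One came from Tdrd1 complexes of adults, with no genotype in the labels. Another came from Mili complexes of wild-type adults, and the last from Mili complexes of animals lacking Tdrd1, 15 days after birth. The labels describe neither the allele nor how many animals were pooled. The list names each distinct sequence once, with 1 position and no library or read number. Mili without Tdrd1 could therefore not be set against Mili with it, nor Tdrd1 against Mili, and there are no replicates. All values below count distinct sequences of the pooled list. A sequence read once counts as much as one read often, and the depth is unknown. The knockout itself could not be checked for the same reason. All 9 germ cell markers had sense sequences, with a median of 81.4 per kb of exon. The median was 1.13 for the 4 Sertoli markers, of which Rhox5 was at 0, and 0.208 for the 5 Leydig markers, of which Cyp17a1 and Hsd3b6 were at 0. The Leydig list was uneven, with Insl3 at 11.2 and Star at 18.96 per kb.

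Ribosomal proteins build the large and the small subunit of the ribosome around its RNA, and their mRNAs are among the most abundant in growing cells. The mRNAs are short, begin with a pyrimidine tract that couples their translation to growth signals, and have given rise to many processed pseudogenes, which are intronless copies of the spliced mRNA. Mili is a Piwi protein, whose guide RNAs, the piRNAs, tend to begin with uridine and can be cut from mRNAs as well as from dedicated precursors. Tdrd1 is a Tudor-domain protein that binds Mili.

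Sequences at a single 5′ end show what the list holds at these genes. The most at 1 place were 10 sequences of Rpl30, of 22 to 31 nt, that share their 5′ end. Next came 15 places with 7 sequences each, in 10 genes. The lines below give the 27-nt form at the place in Rpl30 and at places in Rpl4, Rpl8 and Rps3, genes with many sequences. The capital marks the first base, T stands for U, and positions are 1-based on mm9.
Rpl30, chr15:34372440-34372466, minus strand: Tacaagcagactctgaagatgatcaga
Rpl4, chr9:64025548-64025574, plus strand: Tgaacaccgaccttagcagaatcttga
Rpl4, chr9:64023992-64024018, plus strand: Agaaactcaaagcttggaatgacatca
Rpl8, chr15:76736683-76736709, plus strand: Aaaactgtacaggagaaggagaactag
Rps3, chr7:106630829-106630855, minus strand: Tgttcttggggagaagggtcgtcggat
Of these, the second form of Rpl4 and the form of Rpl8 begin with A and not with U. At the members' own loci the sequences had 2143 distinct 5′ ends, of which 1300 carried a single sequence and 111 carried 5 or more. U was the first base at 42.9% (exact Clopper-Pearson 95% interval 40.8 to 45.0%) of all these 5′ ends and at 63.1% (53.4 to 72.0%) of those with 5 or more, which are included in the former.

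Nearly all ribosomal protein genes gave sense sequences, in numbers that differed widely between genes. At least 1 was listed for 83 of the 86 genes (96.5%), where 71% of all protein-coding genes had one. At least 10 were listed for 56 genes, where 50.8% of protein-coding genes reached that number, and at least 100 for 10 genes, where 14.5% did. The median member had 20 sequences and the median protein-coding gene 10, while 33 members had 10 or fewer. Per kb of merged exon the median was 10.4 with quartiles of 3.80 and 27.3, against 2.89 with quartiles of 0 and 12.8 over all protein-coding genes. The ranges of the 2 sets overlap widely, and the highest protein-coding gene stood at 806 per kb. The merged exons count retained introns too. On the transcript with the longest coding sequence the medians were 12.9 per kb for the members and 3.53 for protein-coding genes, and on the longest transcript they were 16.5 and 3.74.

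**Figure D1:**
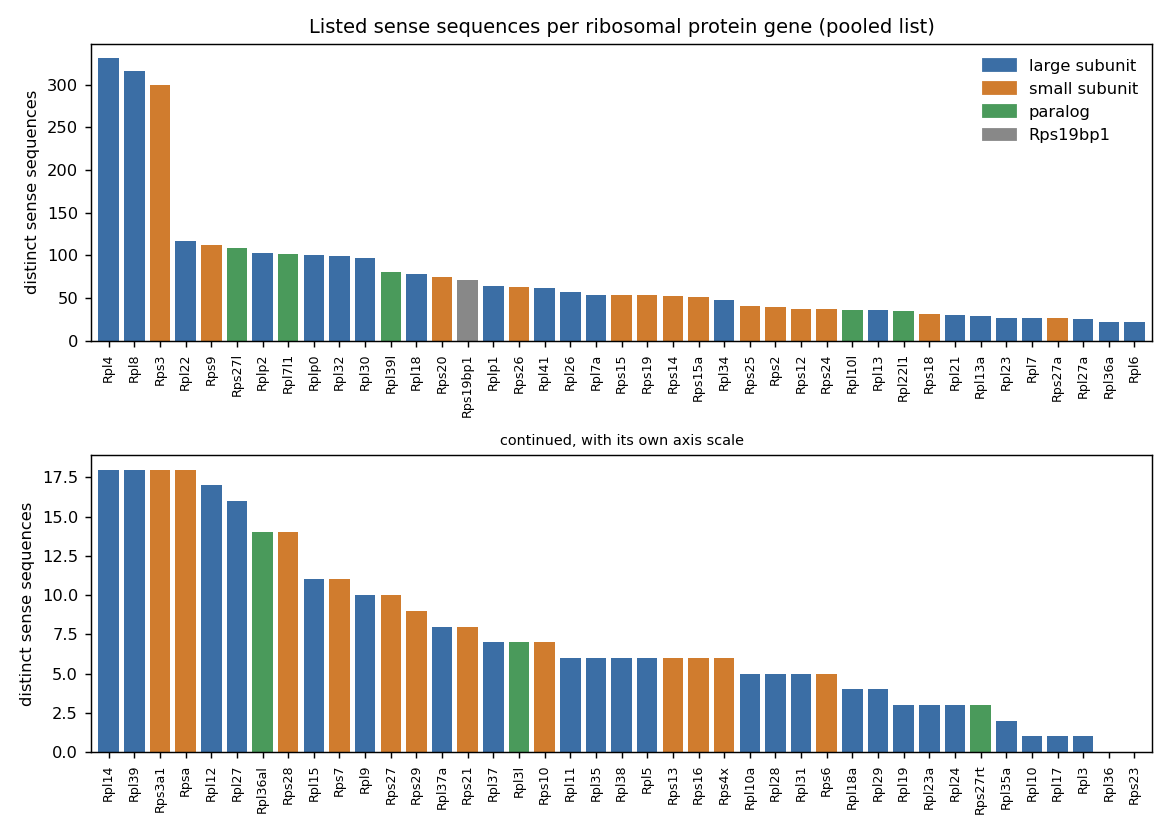
Distinct sense sequences (vertical axis, linear, a scale of its own in each row) for 82 of the 86 genes, ordered from most to fewest and coloured by subunit. Rpl4, Rpl8 and Rps3 lie between 299 and 331 sequences and the next gene drawn at 117, while Rpl36 and Rps23 lie at 0.

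Other genes of the translation and protein turnover machinery had higher medians. The 78 mitochondrial ribosomal protein genes had a median of 21.7 per kb, the 40 proteasome subunit genes 23.9 and the 20 genes of ribosome biogenesis 18.6. The 17 other mRNAs that begin with the same pyrimidine tract had a median of 20.8. Each of these genes had at least 1 sense sequence. Among the last group, Eef2 and Eef1b2, both of translation elongation, stood at 90.9 and 87.3 per kb, and Rack1, a protein of the small subunit, at 59.97. Fau, which encodes a ribosomal protein fused to a ubiquitin-like protein, stood at 7.28, and Tpt1 at 1.68. The genes of this group thus ran over much of the range of the ribosomal protein genes themselves. The order of the lists turned with the measure. In windows of 27 nt inside exons that no other gene shares, the members' median was 12.5 sequences per 1000. It was 23.3 for the mitochondrial ribosomal proteins, 27.1 for the proteasome, 21.9 for ribosome biogenesis and 27.6 for the other pyrimidine-tract mRNAs. Pooled per kb of exon the members were also lowest, at 21.9, with the mitochondrial ribosomal proteins next at 22.6. Pooled over the unshared windows, the members held 28.6 sequences per 1000 and the mitochondrial ribosomal proteins 24.6. The proteasome held 27.3, ribosome biogenesis 28.2 and the other pyrimidine-tract mRNAs 43.6. The share of windows found in another gene was 25.9% for the members and 11.1%, 10.8%, 8.98% and 19.9% for these lists.

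A few genes held a large share of the members' sequences, and the 10 genes with most held 48.8%. Rpl4, whose protein reaches into the exit tunnel, had 331 (165 per kb, chromosome 9 from 64021186 to 64026414). Rpl8, which lies near the peptidyl transferase centre, had 316 and the highest density (233 per kb, chromosome 15 from 76734540 to 76736743). Rps3, which lies where mRNA enters the small subunit, had 299 (66.7 per kb of merged exon, chromosome 7 from 106626676 to 106632152).

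Other genes with many sequences were of several kinds. Rpl22, an RNA-binding protein of the large subunit, had 117 sequences, Rps9 of the small subunit 112, and the paralogs Rps27l and Rpl7l1 108 and 102. The genes of high density included, besides Rpl8 and Rpl4, Rps27l (132 per kb), Rplp1 (128), Rpl32 (103), Rpl39l (96.3) and Rps15 (85.7). The 3 genes of the stalk, which recruits elongation factors, had 100 (Rplp0), 64 (Rplp1) and 103 (Rplp2) sequences. In contrast Rps6, the substrate of the S6 kinases, had 5, and Rpsa, also known as a laminin receptor, had 18. Rps19bp1 had 71.

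In Rpl4, Rpl8 and Rps3 the sequences covered much of the coding sequence in separate blocks. On the transcript with the longest coding sequence they covered 72.6% of Rpl8, 58.6% of Rpl4 and 48.7% of Rps3. Within the coding sequence the covered shares were 76.1%, 62.0% and 80.1%. Up to 75 sequences overlapped at 1 base, in Rpl8. The median over the 86 genes was 9.62%, and 5 genes were covered over more than 50%. Stretches of 27 nt that also occur in another annotated gene made up 33.2% of Rpl4, 6.44% of Rpl8 and 7.91% of Rps3, and the part of such copies in the gaps was not tested.

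**Figure D2:**
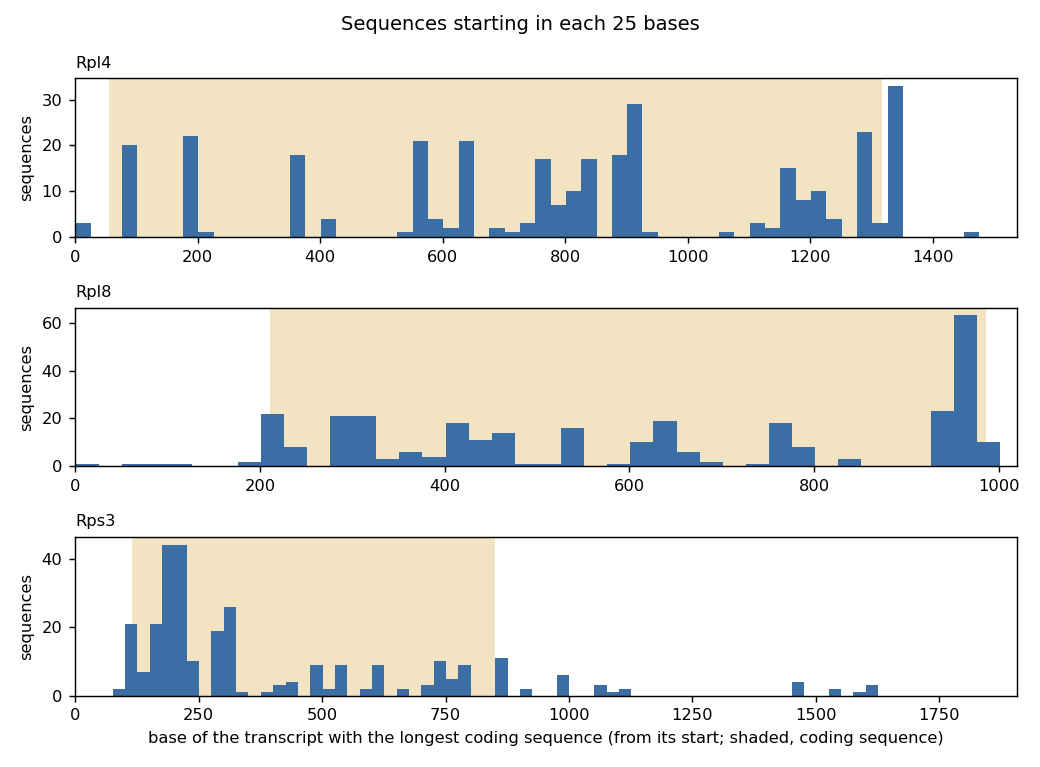
Number of sequences that start in each 25 bases (vertical axis) along the longest-coding transcript of Rpl4, Rpl8 and Rps3 (horizontal axis, bases from the transcript's start; shaded, coding sequence). Blocks of sequences lie mostly within the shaded coding sequence, which held 88.0% of the sequences of Rpl4 in coding transcripts, 93.7% of those of Rpl8 and 89.1% of those of Rps3.

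Stretches of the mRNAs with a copy in an annotated gene at another place held no listed sequence inside exons. Each transcript was cut into all windows of 27 nt, the most common length, and each window was searched in every other annotated gene, pseudogenes included. Of the 179908 distinct windows of the members 25.9% occurred in another gene, against 8.93% for the other protein-coding genes. Windows that lay inside an exon and had no copy in another annotated gene numbered 126821. They held 3633 sequences, 28.6 per 1000 windows (exact Poisson 95% interval 27.7 to 29.6). Windows inside an exon that were shared only with a gene overlapping the member in place, such as Trappc4 for Rps25 or Clhc1 for Rps27a, held 21.8 per 1000 (18.5 to 25.5). Windows inside an exon with a copy at another place numbered 32577, 18.1% of all, and held 0 sequences. A count of 0 there allows up to 0.0921 per 1000 windows, taking 3 sequences as the limit. These intervals and the limit cover counting error only, and neighbouring sequences are not independent. The sources do not say how the authors treated a sequence with several genome positions. Whether such sequences were left out of the list was not tested. The 0 and its limit therefore describe the list and not the level of small RNAs from these windows. The levels per kb above divide by all exon bases, copied ones included, although the sequences inside exons came from the uncopied ones. Rplp1, at 128 per kb, kept 94 unshared windows inside exons, with 62 sequences or 660 per 1000 (506 to 846). Rplp0, at 60.3 per kb, kept 829, with 100 sequences or 121 per 1000 (98.1 to 147). On the uncopied and overlapping windows alone the members' median was 14.0 per 1000 windows. For the 43 members with more copied windows (21.5 to 95.7%) it was 8.90, and for the 43 with fewer (0 to 21.1%) it was 17.8.

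Sequences that cross an exon junction were listed mostly at other chromosomes. A junction is present in the spliced mRNA and in its processed copies but not at the gene itself. With the listed chromosome disregarded, 4513 sequences matched the members, and 659 of them were listed on another chromosome than the gene. All 659 crossed a junction and 0 lay inside an exon. They came from 36 members. Of the 659, 157 reached 3 or fewer bases past the junction. At their listed place 473 matched 1 of 34 annotated pseudogenes in sense, and 169 matched no annotated gene there. On the gene's own chromosome 68 sequences crossed a junction. Of these, 29 had no copy in another annotated gene, and 25 of the 29 reached 3 or fewer bases past the junction. In 40 cases a sequence was listed on the gene's chromosome but far from its other positions, and 38 of the 40 crossed a junction. Rps9 held 35 of the 40, so that 77 of its 112 sequences remained at its own locus.

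**Figure D3:**
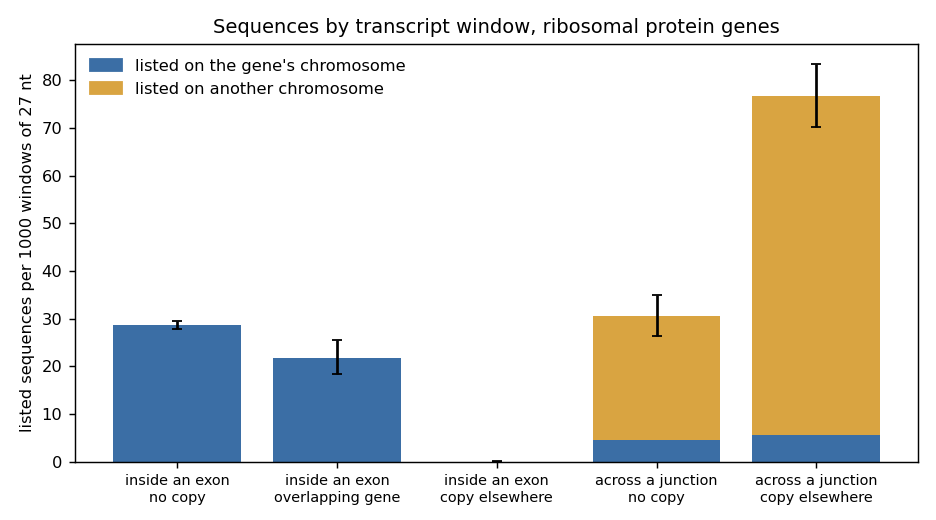
Listed sequences per 1000 transcript windows of 27 nt (vertical axis) for windows inside an exon or across a junction, by whether another annotated gene holds the window. Colours show the listed chromosome and bars exact Poisson 95% intervals of the total. Windows inside an exon with a copy elsewhere hold 0, and windows across a junction with a copy elsewhere hold 76.6 per 1000, mostly listed on another chromosome.

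The sequences below cross a junction and are listed at a processed pseudogene. They were chosen after their values had been seen, 1 for each of 3 genes with many such sequences, among those with the junction nearest the middle. Lower case marks the bases of the upstream exon of the parent gene and capitals those of the downstream exon.
Rpl14, listed in Rpl14-ps1 at chr7:52580674-52580703, plus strand: aaggcaaagaaaatgAGGAACAGAATAATC
Rpl23, listed in Gm9794 at chr6:66825498-66825525, minus strand: actaaggaaaaaggTACATCCAGCAGTG
Rpl10a, listed in Rpl10a-ps1 at chr1:65040854-65040883, minus strand: tggtcaagaagctggCTAAGAAGTACGATG
Each of these is at once an exact piece of the spliced mRNA and of the pseudogene, and the list cannot tell which was the source. For Rpl14 there were 96 such sequences at Rpl14-ps1, all that the pseudogene had, next to 18 at Rpl14 itself. Gm9794 had 53 that match Rpl23, which had 27 of its own, and Rpl10a-ps1 had 32 that match Rpl10a, which had 5. All sense sequences listed at Rpl14-ps1, Gm9794 and Rpl10a-ps1 were pieces of the parent mRNA across a junction.

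On the mRNAs themselves the densities across copied junctions and inside uncopied exons had overlapping intervals. On the longest-coding transcript of each member, windows inside an exon without a copy held 75.9 sequences per 1000 (73.3 to 78.6). Windows across a junction with a copy elsewhere held 78.5 (71.9 to 85.6), counting every listed chromosome. Windows across a junction without an annotated copy held 55.4 (46.3 to 65.7). Over all annotated transcripts of the members, retained introns included, windows across a junction with a copy held 76.6 per 1000 and uncopied windows inside an exon 28.6. In the other protein-coding genes the corresponding windows were classed by any sharing. Those inside an exon and unshared held 13.3 per 1000, and those shared and across a junction held 17.1 over all chromosomes.

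The members' sequences began with U less often than those of other genes. Among those of 24 to 32 nt the share was 47.4% (45.8 to 49.0%, 3812 sequences), against 67.7% (67.6 to 67.8%) for the other protein-coding genes. These intervals and those below cover counting error only, and sequences that share a 5′ end are not independent. A was first in 22.6% against 15.2%, C in 15.2% against 9.22%, and G in 14.8% against 7.83%. The share was 43.1% (40.8 to 45.4%) for the large subunit and 53.0% (50.4 to 55.6%) for the small subunit. Without the 4 genes with most sequences the members' share was 48.2% (46.2 to 50.1%). Sequences that match no other annotated gene had 46.9%.

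U was first less often at the members in each part of the mRNA except the 5′ untranslated region. In coding sequence it began 41.9% of their sequences and 59.5% of those of the other protein-coding genes. In 3′ untranslated regions the shares were 49.8% and 74.3%, and in 5′ untranslated regions 64.5% and 62.7%. The members' mRNAs held slightly less U. Weighted by sequences, U made up 20.4% of their coding sequence and 21.7% of that of the other genes, and whole transcripts held 23.2% and 25.3%. The base just before the 5′ end was U in 19.6% and 25.5%. The part of base composition in the first-base difference was not tested.

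The share varied strongly from gene to gene. Among the 55 members with 10 or more sequences of 24 to 32 nt it ran from 16.1% (Rps18) to 83.3% (Rpl39) with a median of 52.6%, and 24 of them (43.6%) lay below 50%. The extremes rest on 31 and 18 sequences with 16 and 15 distinct 5′ ends, and the part of counting error in the spread was not tested. Among 11084 other protein-coding genes the median was 65.8% and 13.4% lay below 50%. Rpl8 had 32.8%, Rpl4 40.3% and Rps3 58.1%, while Rplp1 had 72.6% and its stalk partner Rplp2 26.2%. Comparison lists lay between the members and all genes, with 53.6% for the proteasome, 54.5% for the other pyrimidine-tract mRNAs, 58.3% for ribosome biogenesis and 60.2% for mitochondrial ribosomal proteins. No interval of these lists overlapped that of the members as a whole, but those of the proteasome and of the other pyrimidine-tract mRNAs overlapped that of the small subunit. With each 5′ end counted once the members' share was 43.2%, outside their own interval, and no such share is given for the lists.

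**Figure D4:**
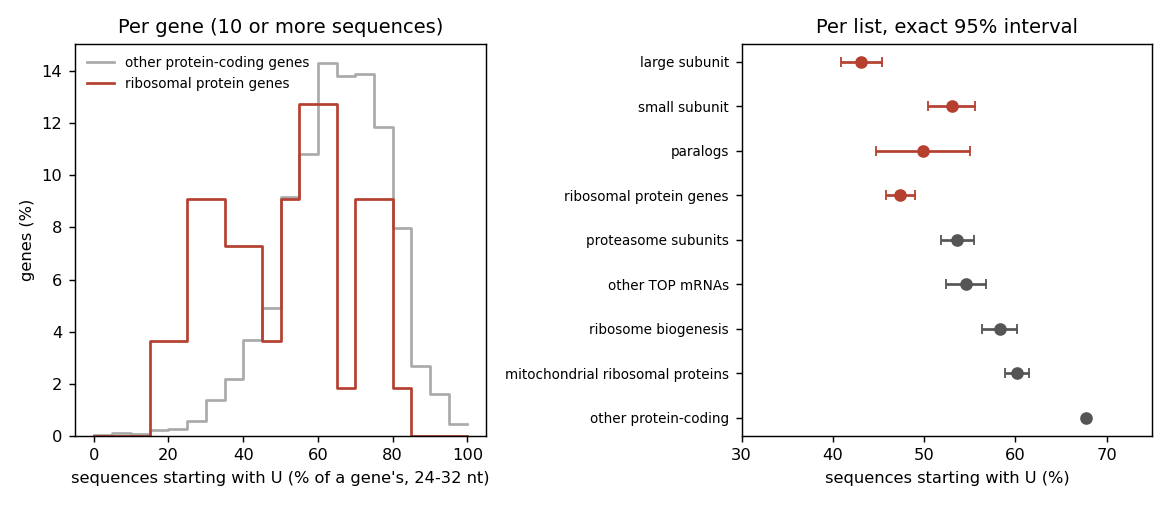
Left, share of genes (vertical axis, %) by the share of a gene's sequences that begin with U (horizontal axis, %), for genes with 10 or more sequences of 24 to 32 nt. Right, share of sequences beginning with U per list with exact 95% intervals for counting error (horizontal axis starts at 30%). The ribosomal protein genes lie at 47.4% in all and the other protein-coding genes at 67.7%.

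Other marks of the sequences differed less from those of the other protein-coding genes than the first base did. The mean length was 27.4 nt in both sets, and 25.2% (23.8 to 26.6%) measured 29 to 32 nt, against 23.3% for the other protein-coding genes. U began 52.3% of the members' sequences of 29 to 32 nt and 45.7% of those of 24 to 28 nt, a difference in the same direction as among the other genes (72.7% and 66.2%). A stood at position 10, where piRNAs made by the amplification cycle between opposite strands carry it, in 29.7% (28.2 to 31.2%). It stood at positions 9 and 11 in 28.9% and 28.8%, within that interval. U followed the 3′ end in 23.1% (21.7 to 24.4%), against 25.9% in the other genes. GC made up 49.8% of the members' sequences and 45.0% of the others'.

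The members' sequences lay mainly in coding sequence, which fills most of these short mRNAs. Of 3655 sequences in coding transcripts 68.3% (66.8 to 69.8%) had their midpoint there, against 60.7% of the length of the same transcripts. The 3′ untranslated region held 18.1% against 23.4% of length, and the 5′ untranslated region 13.5% against 16.0%. In the other protein-coding genes the order was the reverse, with 42.0% in coding sequence against 45.7% of length and 54.0% in 3′ untranslated regions against 47.5%. Without the 4 genes with most sequences the share in coding sequence was 56.5% (54.5 to 58.5%) against 53.2%. Of 51 members with 10 or more sequences in coding transcripts 29 had more in coding sequence than its length gives. With each of these 51 members weighing 1 the coding share was 52.9%, and the share of length weighted in this way is not given.

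Individual genes departed from this in both directions. Of the sequences in coding transcripts, 96.3% of those of Rps15, 94.1% of Rplp2 and 94.0% of Rplp0 lay in coding sequence. In Rpl7l1 85.3% lay in the 3′ untranslated region, which makes up 66.3% of its length, and in Rpl22 80.3% lay in a coding sequence that makes up 36.0% of the length. Rpl41, Rpl21 and Rps27a, named here after their values were seen, had all their sequences in coding transcripts within annotated 5′ untranslated regions. Rpl13, Rpl15 and Rpl27a, likewise, had all of theirs in 3′ untranslated regions. For Rps27a, 23 of 26 sequences also match the opposite strand of Clhc1. Pooled over the members, the sequences were spread along the longest-coding transcript, from 6.75% to 14.5% in each of 10 equal parts. Single genes could differ from this pooled profile, as 2 genes named after their values were seen show. The 47 sequences of Rpl7a on this transcript had midpoints between 25.9% and 28.9% of its length. Those of Rpl10l, 36 in number, had midpoints between 4.11% and 96.3%. Few of the members' sequences began near the annotated start. Of 3452, 26 began within the first 27 bases of the transcript, where the pyrimidine tract lies, and 2 at the first base.

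Paralogs differed from the subunit genes they resemble. Levels here are sequences per 1000 windows inside exons that no other gene shares, with exact Poisson 95% intervals, and counts are those in these windows. Rpl10l, an autosomal copy without introns that serves in male germ cells, had 36 sequences and a level of 50.2 (35.2 to 69.5). The X-linked Rpl10 had 1 sequence and a level of 0.786 (0.0199 to 4.38). Rpl39l, known for its expression in testis, had 80 sequences (109, 86.7 to 136) and X-linked Rpl39 18 (14.8, 8.78 to 23.4). Rps27l had 108 (192, 157 to 232) and Rps27 9 (12.5, 5.70 to 23.7). In each of these pairs the paralog's interval lay above that of the subunit gene.

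The other pairs did not share a direction. Rpl7l1, a homolog with a role in ribosome assembly, had 102 sequences (36.97, 30.1 to 44.9) and Rpl7 24 (12.5, 8.005 to 18.6). Rpl22l1 had 24 sequences (14.6, 9.36 to 21.7), below Rpl22 with 117 (45.1, 37.3 to 54.1). Rpl36al had 12 (12.01, 6.21 to 20.98) and X-linked Rpl36a 22 (18.6, 11.7 to 28.2), with intervals that overlap. Rpl3l, the paralog of striated muscle, had 7 (5.26, 2.11 to 10.8) and Rpl3 1 (0.523, 0.0132 to 2.92), also with overlap. Rps27rt had 3 sequences, and 94.8% of its windows were shared with another gene. Over all 8 paralogs the median was 23.4 sequences per kb of exon, against 9.68 for the 77 subunit genes, with quartiles of 9.77 and 50.5 and of 3.54 and 19.3. The 4 subunit genes on the X chromosome (Rpl10, Rpl36a, Rpl39 and Rps4x) had between 1 and 22 sequences and a median of 8.12 per kb, and the 73 autosomal ones a median of 9.68.

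**Figure D5:**
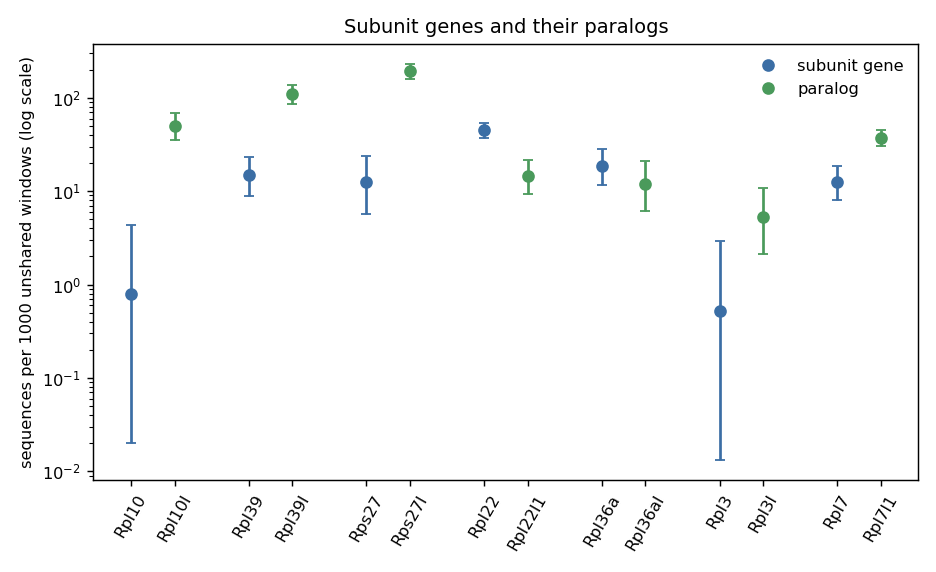
Sequences per 1000 unshared windows (vertical axis, log scale) for 7 subunit genes and their paralogs, with exact Poisson 95% intervals for counting error. Rpl10l, Rpl39l, Rps27l and Rpl7l1 lie above their subunit gene, Rpl22l1 lies below Rpl22, and the intervals overlap for the Rpl36a and Rpl3 pairs.

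The genes without a sense sequence included Rpl36 and Rps23, of which the latter stands at the decoding centre. For Rpl36 95.7% of the windows inside exons had a copy at another place, so that 12 windows remained. Rps23 kept 734 unshared windows inside exons, where a count of 0 allows up to 4.09 per 1000 with the same limit of 3 sequences. Rpl10, Rpl17 and Rpl3 had 1 sequence each.

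Antisense sequences were few next to the 3854 sense sequences, and many of them lay where another gene runs on the opposite strand. They numbered 132. At least 1 was found at 32 of the 86 members, a larger share than the 30% of protein-coding genes that had one. Of the 132, 65 were sense to another annotated gene. At least 5 were found at 6 of the 86 members, a slightly smaller share than the 8.61% of protein-coding genes that reached that number. Rps25 had 45, all sense to another gene and 38 of them to Trappc4, next to 41 sense sequences. Rps28 had 13, of which 8 were sense to Kank3. Rpl18 had 10, of which 5 were sense to Sphk2, and Rpl5 had 5, of which 4 were sense to Fam69a. The 9 of Rpl13a and the 5 of Rps12 were sense to no annotated gene. Sense and antisense sequences overlapped by 10 nt at their 5′ ends in 2 pairs, and by other lengths of 1 to 20 nt in 1 to 14 pairs, with 14 at an overlap of 5 nt.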

How the data were processed

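Positions are on NCBI build 37 of the mouse per the file headers, which is mm9, the name in the submitters' processing notes. The authors deposited 1 list for the 3 libraries, whose columns (no numeric unit) give a sequence, its chromosome and its range. The sources used here do not give the aligner, its mismatches or its handling of repeats. Per the labels, RNA of about 28 to 30 nt was cut from a gel.

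Each sequence was matched exactly and over its whole length, on both strands, to all GENCODE vM21 transcripts (GRCm38; no coordinates of that build are printed) with an 18-nt seed in Python 3.11.15 and numba 0.67.0. A match was kept where the gene lies on the listed chromosome. Tested on 3000 simulated sequences of 300 genes, the matcher recovered 100%. No test between groups was possible, so values carry counting intervals.

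The rule for the members uses symbols only, but this group of genes and the lists were chosen with earlier results of these data known. Named genes were the 10 members with most sequences, the 10 with highest density, those at 0, those with 5 or more antisense sequences, the paralogs, Rps19bp1, the stalk genes, Rpsa, Rps6, and those with most sequences at 1 5′ end, where the tie left 1 clear gene. Some genes this rule names are not reported here.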

Additional observations from a re-analysis of the deposited data

Results flagged for a closer look

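Matches of ribosomal protein transcripts listed on another chromosome numbered 659, and all of them crossed an exon junction. Small nucleolar RNA genes that lie inside ribosomal protein genes on the same strand matched 82 sense sequences, of which 58 were outside the main count and 24 also matched the members' exons. They came from 27 of 58 such genes in 30 hosts, and Gm23969 in Rpl7a had 16 of them.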

How the results depend on the processing

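Of 27 alternative values 18 stayed within 1.5 times the reported value, or within its 95% interval for a share, and 9 moved further. The 6 alternatives on members in -ps, own locus, coding transcripts, longest coding transcript and density over any chromosome were chosen after seeing the data. With each 5′ end counted once the members had 2173 sequences, 43.2% began with U and 61.4% lay in coding sequence. The median density per kb was 16.5 on the longest transcript. At 24 to 28 nt 45.7% began with U. The coding share was 71.7% by the 5′ end. It was 52.9% with each of the 51 members with 10 or more sequences in coding transcripts weighing 1. Without sequences of other genes, 0.792% crossed a junction in place of 1.76%, and 67 antisense sequences were sense to no other gene. The cause was not tested. No paired analysis was possible because each group has 1 library and the list names none. Distinct sequences have no read numbers, so levels of 1 to 5 sequences rest on few observations.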

Other observations

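The distance from the 3′ end of a member's sequence to a 5′ end downstream was counted from 1 to 50 nt, each end once. Of 2427 3′ ends 166 had a 5′ end at the next base (6.84%), while the highest number at distances of 2 to 50 nt was 170 and the mean 111. In the other protein-coding genes 4.42% had one at the next base (42389). The mean at the other distances was 3.996% and the highest share 4.41% (42268, at 11 nt).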
